A study of Mus musculus with 6 samples.

Results

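The genes described here are 10 genes of inflammatory signalling through NF-kB: the cytokine genes Il1b, Tnf and Il6, the chemokine genes Cxcl2, Ccl3 and Ccl4, the feedback inhibitor genes Nfkbia and Tnfaip3, and the subunit genes Nfkb1 and Relb. They were taken by symbol from the deposited counts, which list 38926 genes, and all 10 were found. RNA was sequenced from hematopoietic stem cells (HSCs) that were sorted by surface markers from mouse fetal liver at E14.5, mid-gestation. The 3 controls were Vav-Cre; Dpy30F/+ and the 3 knockouts were Vav-Cre; Dpy30F/-, with 1 sample of each genotype from each of 3 litters, and samples are called by their litter number. Vav-Cre is a recombinase transgene expressed in the blood-forming lineage, and all 6 samples carried it together with a floxed Dpy30 allele. The controls thus keep 1 intact allele after recombination and the knockouts none, and the comparison is with heterozygous cells. The labels do not give the number of embryos per sample. Dpy30 encodes a shared subunit of the complexes that methylate lysine 4 of histone H3, and the comparison asks which transcripts change when it is lost.

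NF-kB transcription factors are dimers of Rel-family proteins that are held inactive in the cytoplasm by inhibitor proteins. Stimuli such as tumour necrosis factor, interleukins or bacterial products activate a kinase complex that marks the inhibitor for destruction, and the freed dimers enter the nucleus and switch on cytokine and chemokine genes. Among the genes they switch on are those of their own inhibitors and subunits, so the response limits itself. Inflammatory cytokines act on fetal and adult HSCs, and similar factors are secreted by senescent cells.

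Binding sites of NF-kB near the start of these genes are short and G-rich. RefSeq promoter windows (GRCm38.p6) were matched by symbol for 7 of the 10 genes, and Ccl4, Nfkb1 and Relb had none. The 250 bases before each start were searched on both strands for the NF-kB consensus decamer, allowing overlapping matches. It was found for 4 genes, Il6, Cxcl2, Nfkbia and Tnfaip3, and in 7.25% of all 32851 promoter windows searched in the same way. Those of Il6, Cxcl2 and Nfkbia are shown because they carry the element that the shared regulation of this gene set is named for, with the matching bases in capitals, and the Tnfaip3 window is left out because it overlaps an annotated exon of that gene. Each runs 5′ to 3′ on the strand of its gene. The Il6 window is chr5:30013045-30013104 on the plus strand, with its match 44 bases before the start. The Cxcl2 window is chr5:90903777-90903837 on the plus strand, where the capitals are 2 matches offset by 1 base, beginning 97 and 96 bases before the start. The Nfkbia window is chr12:55492648-55492701 on the minus strand, with its match 29 bases before the start.
Il6: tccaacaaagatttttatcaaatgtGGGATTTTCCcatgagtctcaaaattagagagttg
Cxcl2: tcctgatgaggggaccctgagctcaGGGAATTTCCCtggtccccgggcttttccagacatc
Nfkbia: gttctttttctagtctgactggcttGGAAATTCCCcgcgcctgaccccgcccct
The search found no such match within 250 bases of the start of Il1b, Tnf or Ccl3. A match is a description of the letters only, and of the genes shown, Il6 and Cxcl2 had hardly any reads in these cells.

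The libraries held 31897737 to 43394700 counts assigned to genes. Knockouts 2 and 3 had a count in the fewest genes, 14674 and 13972, against 16149 to 17241 in controls and 16857 in knockout 1. Values below are counts, or counts per 1000000 counts of the library (CPM) after scaling by edgeR's trimmed mean of M values, and 3 counts, taken here as the floor of detection, equal 0.0680 to 0.104 CPM depending on the library. Errors are SDs over the 3 libraries of a genotype, and permutation tests are exact and two-sided, with 0.1 as the smallest p that 3 against 3 samples can give. The targeted gene Dpy30 had a mean of 26.8 CPM in controls and 9.18 CPM in knockouts without overlap, at the smallest possible p (-1.55 on the log2 scale by edgeR, adjusted p = 0.672). All 15 HSC marker genes checked, among them Kit, Procr and Hlf, passed the filter on low counts, and their summed level was 1032 to 1198 CPM in controls and 776 to 1424 CPM in knockouts. Knockout 3 had the lowest HSC marker sum and the highest sum of macrophage and of granulocyte markers of the 6 libraries.

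Of the 10 genes 1 separated the genotypes, and most of the rest had little transcript. Nfkb1 was the most abundant of them and was higher in every knockout than in any control, by 2.39-fold on average. Among all genes tested, every knockout lay above every control in 6.39% and below every control in 7.74%. That 1 of the 6 genes tested here separated is therefore no particular trait of the set. Among the secreted factors, Cxcl2 had no reads at all, and Il1b, Il6 and Ccl4 passed the floor of detection in 1 library each. Tnf and Ccl3 were well above the floor in knockouts 1 and 2, and both had higher knockout means, with groups that overlapped. The inhibitor genes Nfkbia and Tnfaip3 and the subunit gene Relb overlapped between the genotypes. The filter on low counts kept 6 of the 10 (Tnf, Ccl3, Nfkbia, Tnfaip3, Nfkb1, Relb). In edgeR's quasi-likelihood test none of these 6 passed an adjusted p of 0.05, where 0% of all 13646 genes tested did so (888 genes had an unadjusted p under 0.05, and DESeq2 called 139). At an unadjusted p under 0.05, 1 of the 6 was found, against 6.51% of all genes.

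**Figure D1:**
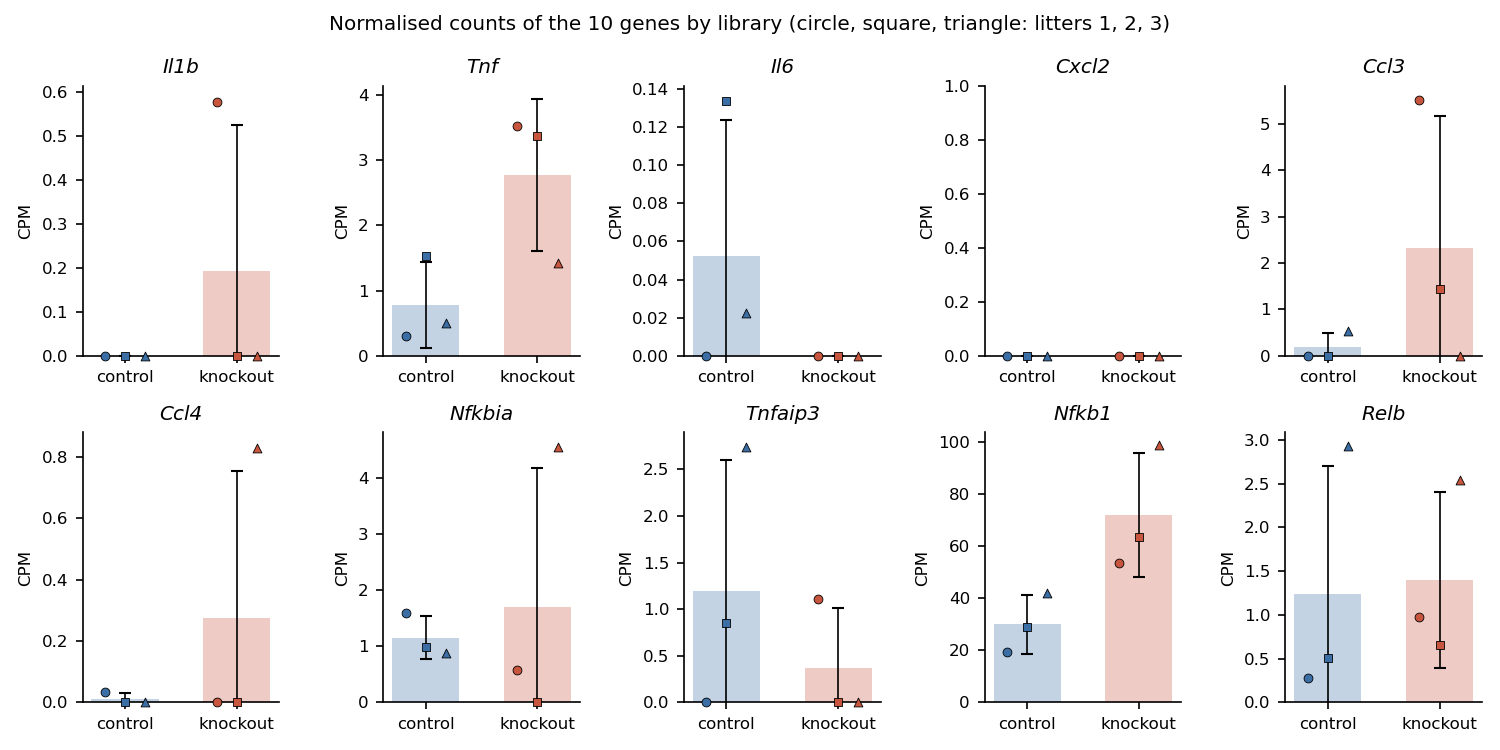
Normalised counts (CPM, linear axes that differ between panels) of the 10 genes in the 3 control and 3 knockout libraries. Bars are means, lines are SDs over 3 samples and symbols are single libraries by litter. In Nfkb1 the 3 knockouts, at 53.4 to 98.6 CPM, lie above the 3 controls, at 19.4 to 41.9 CPM, and in the other panels the groups overlap.

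Nfkb1 encodes an inhibitory precursor that is processed into a DNA-binding NF-kB subunit, and is itself a target of the pathway (ENSMUSG00000028163.17; chromosome 3, 135584655 to 135691547, minus strand, GRCm38; protein-coding). Controls 1 to 3 gave 562, 1077 and 1849 reads of it, and knockouts 1 to 3 gave 2122, 2308 and 3454. Scaled, these were 19.4, 28.8 and 41.9 CPM in controls and 53.4, 63.6 and 98.6 CPM in knockouts. The groups did not overlap, and litter 3 was the highest of each genotype. Every knockout lay above every control in 6.39% of all genes tested, and below every control in 7.74%. The knockout mean was 71.9 ± 23.7 CPM and the control mean 30.05 ± 11.3 CPM (exact permutation test, p = 0.1, the smallest possible). Within litters the knockout exceeded its control by 1.46, 1.14 and 1.23 on the log2 CPM scale in litters 1 to 3.

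For Nfkb1 edgeR fitted a log2 fold change of 1.26 with an SE of 0.38 (unadjusted p = 0.0108, adjusted p = 0.672). DESeq2 gave 1.28 with an adjusted p of 0.135 over the same genes, where it called 1.02% of all genes. With litter as a block, a pairing given by the labels, DESeq2 gave 1.30 and an adjusted p of 0.0312, so that Nfkb1 passed. It was the 1 member called higher of the 6 tested in that fit, against 1.11% of all genes called higher. edgeR with the same block gave 1.28 and an adjusted p of 0.953. Leaving out any 1 litter ended the call of the blocked DESeq2 fit, with adjusted p of 0.274, 0.118 and 0.220 without litters 1, 2 and 3 and log2 fold changes of 1.22, 1.35 and 1.31. In the 18 alternative settings tried the fold change was positive, from 0.97 to 1.58, and 1 of them gave a call.

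**Figure D2:**
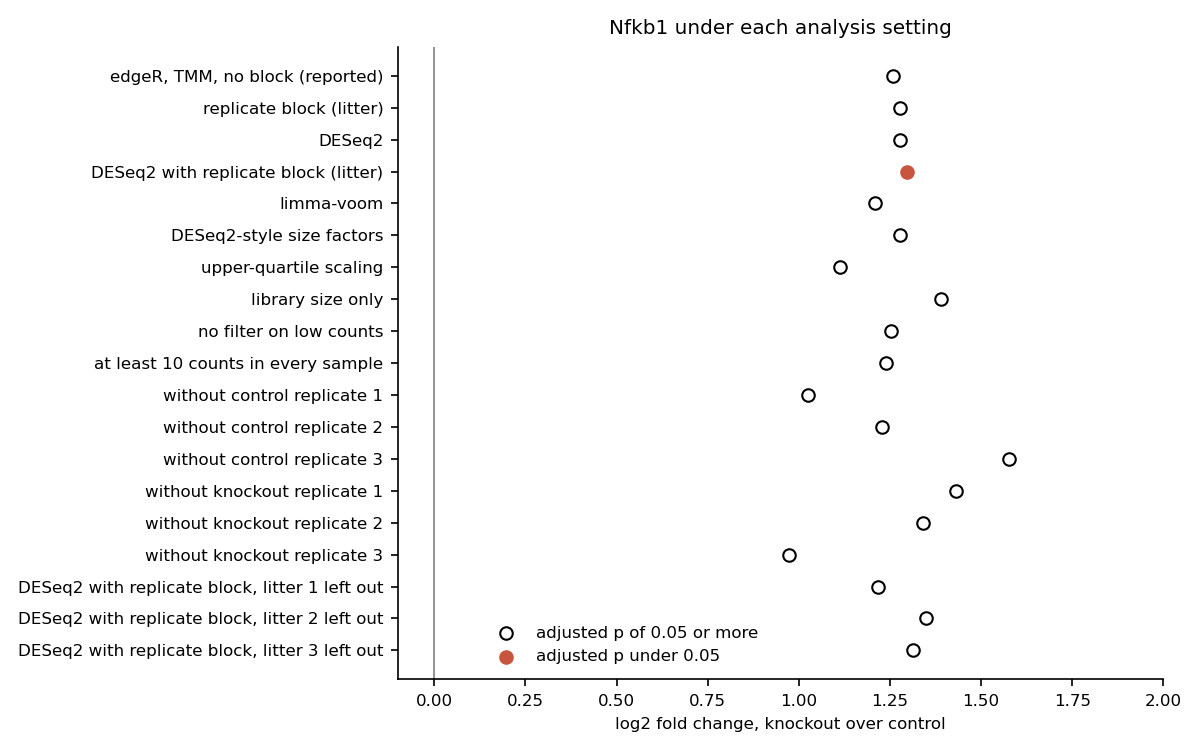
Log2 fold change of Nfkb1 (x axis, knockout over control) under each analysis setting (y axis). All 19 points lie to the right of 0, between 0.97 and 1.58, and the single filled point, DESeq2 with litter as a block at 1.30, is the one with an adjusted p under 0.05.

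Relb encodes the Rel-family subunit of the slower, non-canonical branch of the pathway (ENSMUSG00000002983.17; chromosome 7, 19606217 to 19629438). Controls 1 to 3 gave 8, 19 and 129 reads of it and knockouts 1 to 3 gave 39, 24 and 89. The knockout mean was 1.39 ± 1.01 CPM and the control mean 1.24 ± 1.47 CPM, and edgeR fitted a log2 fold change of 0.17 with an SE of 1.31 (adjusted p = 0.990). Litter 3 was the highest of both genotypes, and the sign of the fold change turned with upper-quartile scaling and without control 1, control 2 or knockout 3.

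The remaining subunit genes come from a list of 45 further pathway genes. Rela, whose product is the main activating subunit of the canonical branch, had 23.7, 19.5 and 25.9 CPM in controls 1 to 3 and 29.1, 24.97 and 16.97 CPM in knockouts 1 to 3 (0.04 on the log2 scale by edgeR, adjusted p = 0.994; the sign turned with upper-quartile scaling). Rel, which encodes c-Rel, had 14.4, 17.6 and 4.20 CPM in controls and 3.04, 5.76 and 26.4 CPM in knockouts, so that litter 3 ran opposite to litters 1 and 2 (-0.04 on the log2 scale by edgeR, adjusted p = 0.997; the sign turned with library-size scaling). Nfkb2, the partner of Relb in the non-canonical branch, had 0.173, 0.856 and 3.22 CPM in controls and 0.830, 3.34 and 9.63 CPM in knockouts, higher in the knockout of each litter but overlapping between the groups (1.69 on the log2 scale by edgeR, adjusted p = 0.877; 0.56 without knockout 3 and 3.15 without control 3). Per kilobase of annotated exon, the order of the levels in controls was Rela (7.50 CPM per kb), Nfkb1 (2.49), Rel (1.62), Relb (0.318) and Nfkb2 (0.309), where the libraries of Nfkb1 overlapped those of Rel and the libraries of Relb those of Nfkb2. In knockouts Rela stood at 7.71 CPM per kb and Nfkb1 at 5.96, with overlapping libraries. Nfkb1 made up 14.2%, 20.9% and 24.97% of the summed length-scaled level of the 5 subunit genes in controls 1 to 3. In knockouts 1 to 3 this share was 30.02%, 35.0% and 40.9%. These shares did not overlap between the genotypes, and they depend on all 5 genes.

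**Figure D3:**
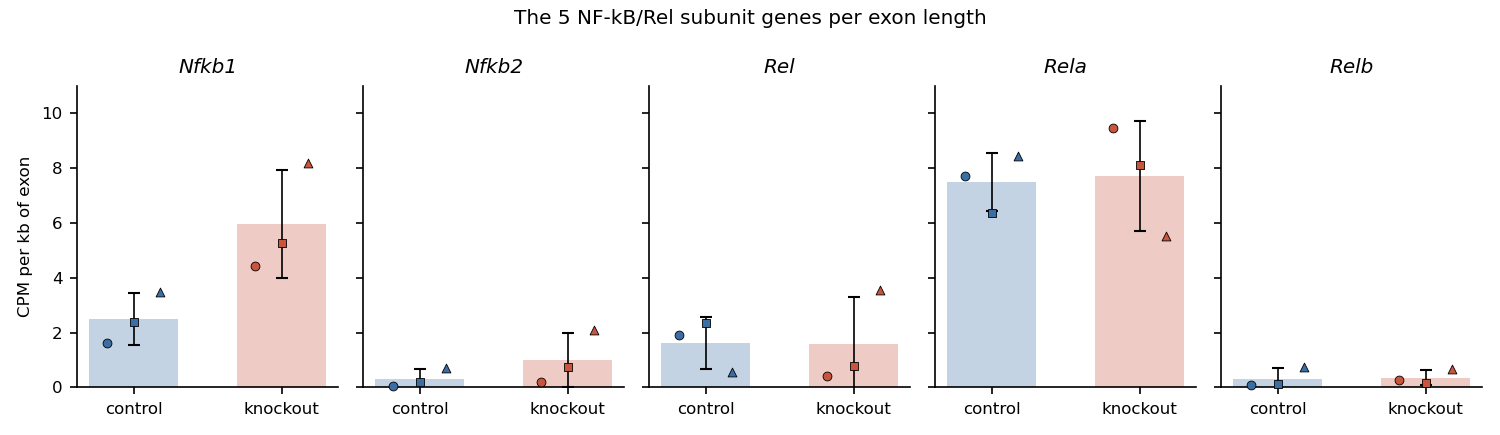
Levels of the 5 NF-kB subunit genes in CPM per kilobase of exon (shared linear y axis) in the 3 control and 3 knockout libraries, with means (bars), SDs (lines) and single libraries (symbols by litter). Rela is the highest in controls at a mean of 7.50, and Nfkb1 goes from a mean of 2.49 to 5.96 with no overlap.

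Both feedback inhibitor genes overlapped between the genotypes. Nfkbia encodes IkB-alpha, the inhibitor that is degraded on activation and resynthesised as an NF-kB target (ENSMUSG00000021025.8; chromosome 12, 55489410 to 55492647). Controls 1 to 3 gave 46, 37 and 39 reads of it and knockouts 1 to 3 gave 23, 0 and 159. The controls lay close together at 1.15 ± 0.380 CPM, while the knockouts spread from none to 4.54 CPM around a mean of 1.71 ± 2.47 CPM. The edgeR log2 fold change was 0.56 with an SE of 1.75 (adjusted p = 0.977). Knockout 3 alone was above the controls, and the other 2 knockouts were below them. The fold change was -1.53 with litter as a block and -1.96 without knockout 3.

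Tnfaip3 encodes a ubiquitin-editing enzyme that shuts off signalling upstream of the kinase complex (ENSMUSG00000019850.11; chromosome 10, 19000910 to 19015657). Controls 1 to 3 gave 0, 32 and 121 reads of it and knockouts 1 to 3 gave 44, 0 and 0. Libraries without a read occurred in both genotypes. The control mean was 1.20 ± 1.40 CPM and the knockout mean 0.369 ± 0.639 CPM, and edgeR fitted a log2 fold change of -1.69 with an SE of 2.34 (adjusted p = 0.936). The value was -8.45 without knockout 1, -0.21 without control 3 and -7.95 in DESeq2 with the litter block (adjusted p = 0.217). In litter 1 it was the knockout that had the reads, in litters 2 and 3 the control. Such empty libraries were common at this level: of 4161 genes with a mean of 0.5 to 5 CPM, 43.1% had a library with 0 counts and another with at least 20. Of the 3899 genes with a mean of 20 to 100 CPM, where Nfkb1 lies, 0.231% did. Knockouts 2 and 3, where Tnfaip3 had no reads, were the libraries with the fewest genes read. The zeros of Nfkbia in knockout 2 and of Ccl3 in knockout 3 fell in these libraries as well. Those of Tnfaip3 in control 1 and of Ccl3 in controls 1 and 2 fell in libraries with more genes read. Control 2 had the most genes read of all libraries, 17241. The part of coverage in these zeros was not tested.

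Among the cytokines, Tnf was the only one read in all 6 libraries. Its product, tumour necrosis factor, is both an activator and a target of NF-kB (ENSMUSG00000024401.14; chromosome 17, 35199381 to 35202007). Controls 1 to 3 gave 9, 57 and 22 reads of it and knockouts 1 to 3 gave 140, 122 and 50, or 0.311, 1.52 and 0.499 CPM against 3.52, 3.36 and 1.43 CPM. Knockouts 1 and 2 exceeded all controls, and knockout 3 fell just below control 2. The control mean was 0.778 ± 0.653 CPM and the knockout mean 2.77 ± 1.17 CPM (exact permutation test, p = 0.2), and the knockout was the higher one in each litter, by 3.29, 1.11 and 1.42 on the log2 CPM scale. By edgeR it differed by 1.83 on the log2 scale with an SE of 1.15 (adjusted p = 0.844), and it did not pass in any setting, with adjusted p of 0.622 at the lowest. Without control 2 the value was 2.77.

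Il1b, the gene of a fever-inducing cytokine that needs inflammasome cleavage, had 23 counts in knockout 1 and 0 in the 5 other libraries (ENSMUSG00000027398.13; chromosome 2, 129364570 to 129371139). The 23 counts equal 0.579 CPM, and the annotation has an antisense gene, Il1bos, over its exons, which counting without strand could not tell apart. Il6, the gene of a cytokine of the acute-phase response, had 5 counts in control 2, 1 in control 3 and 0 elsewhere, and no knockout had a read of it (ENSMUSG00000025746.11; chromosome 5, 30013114 to 30019981). With 0 counts, levels up to 0.0755, 0.0827 and 0.0857 CPM remain possible in knockouts 1 to 3, counting error only. At this depth no difference in either gene was detectable.

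The chemokines were as scattered. Ccl3 and Ccl4 lie next to each other and encode ligands that draw in monocytes and lymphocytes. Ccl3 (ENSMUSG00000000982.5; chromosome 11, 83647844 to 83649355) was read 0, 0 and 24 times in controls 1 to 3 but 219, 52 and 0 times in knockouts 1 to 3. Knockouts 1 and 2 exceeded every control, and in litter 3 the order was the opposite, with reads in the control only. The control mean was 0.181 ± 0.314 CPM and the knockout mean 2.31 ± 2.86 CPM (exact permutation test, p = 0.4), and edgeR fitted a log2 fold change of 3.63 with an SE of 2.48 (adjusted p = 0.859). It was 1.95 without knockout 1 and 9.36 without control 3. Blocked DESeq2 without litter 3, a setting chosen after the data were seen, called it with an adjusted p of 0.0465. That setting drops the litter with the opposite order, and it called 124 of 14130 genes. Without litters 1 and 2 the same fit gave 0.74 and 1.53 and no call.

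Ccl4 (ENSMUSG00000018930.3; chromosome 11, 83662584 to 83664683) had 29 counts in knockout 3, 1 in control 1 and 0 in the 4 other libraries. Ccl3 had no reads in knockout 3. Cxcl2, a neutrophil-attracting chemokine gene (ENSMUSG00000058427.10; chromosome 5, 90903871 to 90905938), had 0 counts in all 6 libraries, which leaves possible levels of up to 0.0680 to 0.104 CPM per library.

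Read by library, the 6 secreted-factor genes together gave 10, 62 and 47 reads in controls 1 to 3 but 382, 174 and 79 reads in knockouts 1 to 3. At least 3 counts were reached by 1, 2 and 2 of the 6 in controls and by 3, 2 and 2 in knockouts. In knockouts 1 and 2 most of these reads were of Tnf and Ccl3, and in knockout 3 they were 50 of Tnf and 29 of Ccl4. Knockout 1 had the most, with Tnf, Ccl3 and Il1b all present, and control 1 had the fewest.

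Markers of other cells were high in some knockouts beside these values. Of 17 macrophage markers, 15 passed the filter, 14 of them (93.3%) with a positive fold change, against 50.8% of all genes. In 6 of the 15 (40.0%) every knockout was above every control, against 6.39% of all genes. edgeR called 0 of the 15 (7 at an unadjusted p under 0.05, against 6.51% of all genes). DESeq2 called 3 and DESeq2 with the block called 4, all higher. Of all genes DESeq2 called 1.02%, and with the block it called 1.11% higher. Their summed level was 379, 602 and 408 CPM in controls 1 to 3 and 947, 426 and 1838 CPM in knockouts 1 to 3 (exact permutation p = 0.2). Knockout 2 lay within the control range in this sum, yet above every control in the 6 markers counted above. The sum and these 6 markers thus gave different readings of knockout 2. In every library 15 of the 17 markers reached at least 3 counts. Csf1r, C1qb and Lyz2 were read in every library, whereas Vsig4 had 0 counts in the controls and in knockout 2. Tnf was as high in knockout 2 (3.36 CPM), whose macrophage sum lay within the control range, as in knockout 1 (3.52 CPM), and was lowest of the knockouts where the sum was highest. Ccl3 had 0 counts in the library with the highest sum. Nfkb1 was highest (98.6 CPM) in knockout 3, the library with the highest macrophage sum, and in knockout 2 (63.6 CPM) it exceeded every control with a macrophage sum below that of control 2. Granulocyte markers summed to 61.5 to 124 CPM in controls and to 72.1, 148 and 438 CPM in knockouts 1 to 3, so that knockout 2 lay above every control in these. Knockout 2 also had the lowest endothelial marker sum, 183 CPM, against 1163 to 1815 CPM in controls. Mast cell and basophil markers summed to 0.0691, 5.48 and 1.18 CPM in controls 1 to 3. In knockouts 1 to 3 they summed to 11.7, 6.42 and 17.9 CPM. Of the 10 lists summed, this was the only list without overlap (exact permutation p = 0.1, the smallest possible). Among single genes tested, every knockout lay above every control in 6.39% and below every control in 7.74%. That 1 of 10 lists separated is therefore no particular trait of this list. Just 2 of the 9 mast cell and basophil genes passed the filter. T and NK cell markers summed to 1.76, 0.776 and 5.35 CPM in controls and 3.50, 15.9 and 15.1 CPM in knockouts. The part of other cells in the values of Tnf, Ccl3 and Nfkb1 was not tested, and in bulk RNA a change in the number of cells of a type and a change in RNA per cell cannot be told apart.

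**Figure D4:**
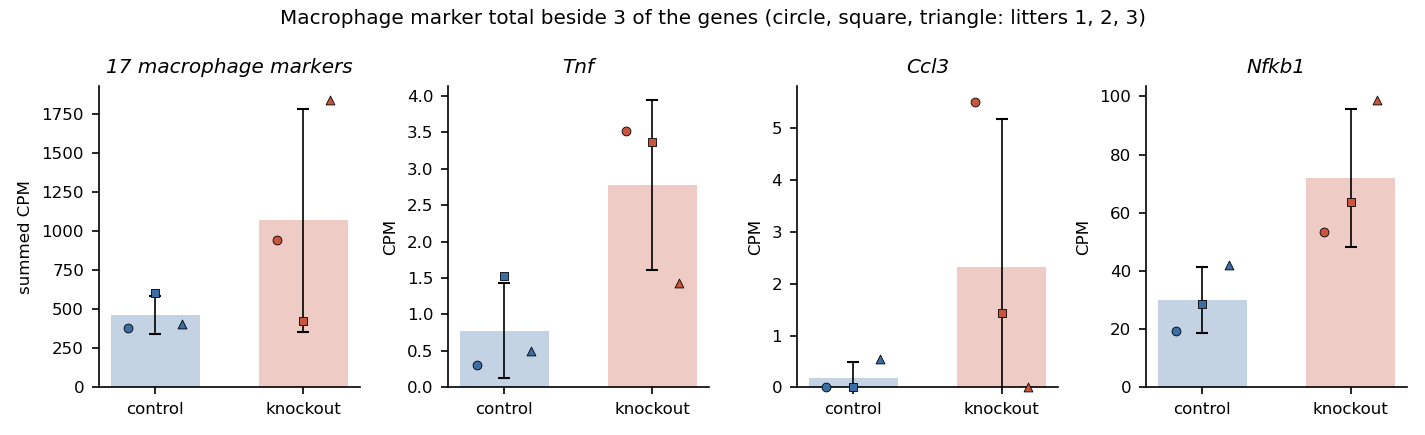
Summed CPM of 17 macrophage markers beside the CPM of Tnf, Ccl3 and Nfkb1 (linear axes) in the 3 control and 3 knockout libraries, with means (bars), SDs (lines) and single libraries (symbols by litter). Knockout 2 (square) has a marker sum of 426 CPM, within the control range, with Tnf at 3.36 and Nfkb1 at 63.6 CPM. In 6 of the 15 tested markers every knockout, knockout 2 included, exceeds every control.

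The wider pathway was well covered, unlike the secreted factors. Of the 45 further genes of NF-kB signalling, 43 passed the filter, and edgeR called 0 of them (6 at an unadjusted p under 0.05, all higher in the knockout, where 6.51% of all genes were below that p in either direction). Their median log2 fold change was 0.45, and that of all genes tested was 0.01. Positive fold changes were found for 27 of the 43 (62.8%), against 50.8% of all genes. In 7 of them (16.3%) every knockout exceeded every control, against 6.39% of all genes, and in 2 (4.65%) every knockout lay below, against 7.74%. The summed level of the list was 871 to 939 CPM in controls and 1002 to 1480 CPM in knockouts.

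Receptor genes had the 2 largest positive fold changes of the list. Tnfrsf11a, which encodes RANK, a receptor of both NF-kB branches found on osteoclast precursors and other myeloid cells, had 0, 1.47 and 0.930 CPM in controls 1 to 3 and 22.4, 8.85 and 31.4 CPM in knockouts 1 to 3. It was the single gene of the list that passed in DESeq2 without a block (log2 fold change 4.72, DESeq2 adjusted p = 0.00265; edgeR 4.69, adjusted p = 0.668). DESeq2 thus called 1 of the 43 tested genes of the list, against 1.02% of all genes. With the block it called 2 of the 43, both higher, against 1.11% of all genes called higher. Tnfrsf11a also passed with the block (DESeq2 adjusted p = 0.000119) and without each litter in turn. The fits without litters 1, 2 and 3 called 193 of 13845, 268 of 14018 and 124 of 14130 genes. Tnfrsf11a was highest in knockout 3, which also had the highest macrophage marker sum, and stood above all controls in every knockout. Il6ra, the interleukin-6 receptor subunit gene, had 3.97, 5.88 and 11.5 CPM in controls and 14.3, 10.7 and 119 CPM in knockouts. Its groups overlapped. DESeq2 without a block gave it a log2 fold change of 2.78 but no p. It passed in DESeq2 with the block (log2 fold change 2.04, adjusted p = 0.0257) but not on leaving out litter 1 or litter 3 (adjusted p = 0.109 and 0.776). Its edgeR log2 fold change went from 2.75 to 0.82 without knockout 3, the library with the highest macrophage and granulocyte sums. The part of other cells in Tnfrsf11a and Il6ra was not tested.

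The other 4 genes of the list below an unadjusted p of 0.05 in edgeR were Rbck1, Tnip1, Tab2 and Rnf31, and none passed after adjustment. Rbck1 and Rnf31, which encode subunits of the linear ubiquitin ligase, had 18.8 ± 5.56 against 44.5 ± 21.3 CPM and 21.5 ± 4.96 against 37.0 ± 3.36 CPM (control against knockout; mean ± SD; edgeR adjusted p = 0.723 and 0.761). Sharpin, the gene of the remaining subunit, named after its values were seen, had 11.3 ± 5.52 against 11.07 ± 6.44 CPM with overlapping groups (-0.03 on the log2 scale by edgeR, adjusted p = 0.996). Tnip1, whose product works with that of Tnfaip3 as a brake, had 9.05, 3.18 and 6.53 CPM in controls 1 to 3 and 17.2, 26.9 and 12.8 CPM in knockouts 1 to 3 (1.60 on the log2 scale by edgeR, SE 0.59, adjusted p = 0.729). Tab2, an adaptor of the kinase TAK1, had 215 ± 28.6 and 300.5 ± 20.4 CPM (mean ± SD; control and knockout; 0.48 on the log2 scale by edgeR, adjusted p = 0.753). In Rbck1, Rnf31, Tnip1 and Tab2 every knockout exceeded every control.

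The genes of the kinase complex itself overlapped between the genotypes. Ikbkb, the catalytic subunit of the canonical branch, had 35.3, 33.6 and 31.3 CPM in controls 1 to 3 and 63.7, 26.4 and 80.9 CPM in knockouts 1 to 3 (0.77 on the log2 scale by edgeR, SE 0.41, adjusted p = 0.797). Chuk, the other catalytic subunit, had 17.6 ± 4.80 and 13.4 ± 4.81 CPM, and Ikbkg, the regulatory subunit, had 18.1 ± 7.46 and 24.8 ± 11.3 CPM (control and knockout; mean ± SD; edgeR adjusted p = 0.930 and 0.921). The 2 pathway genes with every knockout below every control, picked out after their values were seen, were Nfkbie with 5.06 ± 3.14 against 1.84 ± 1.20 CPM and Nfkbiz with 6.19 ± 1.87 against 2.38 ± 1.82 CPM (control against knockout; mean ± SD; edgeR adjusted p = 0.866 and 0.868). Both belong to the IkB family of inhibitors and regulators, whose other list members overlapped between the genotypes and differed in sign, at 0.87 for Nfkbib, 1.28 for Bcl3 and -0.82 for Nfkbid on the log2 scale (edgeR adjusted p = 0.824, 0.863 and 0.962).

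**Figure D5:**
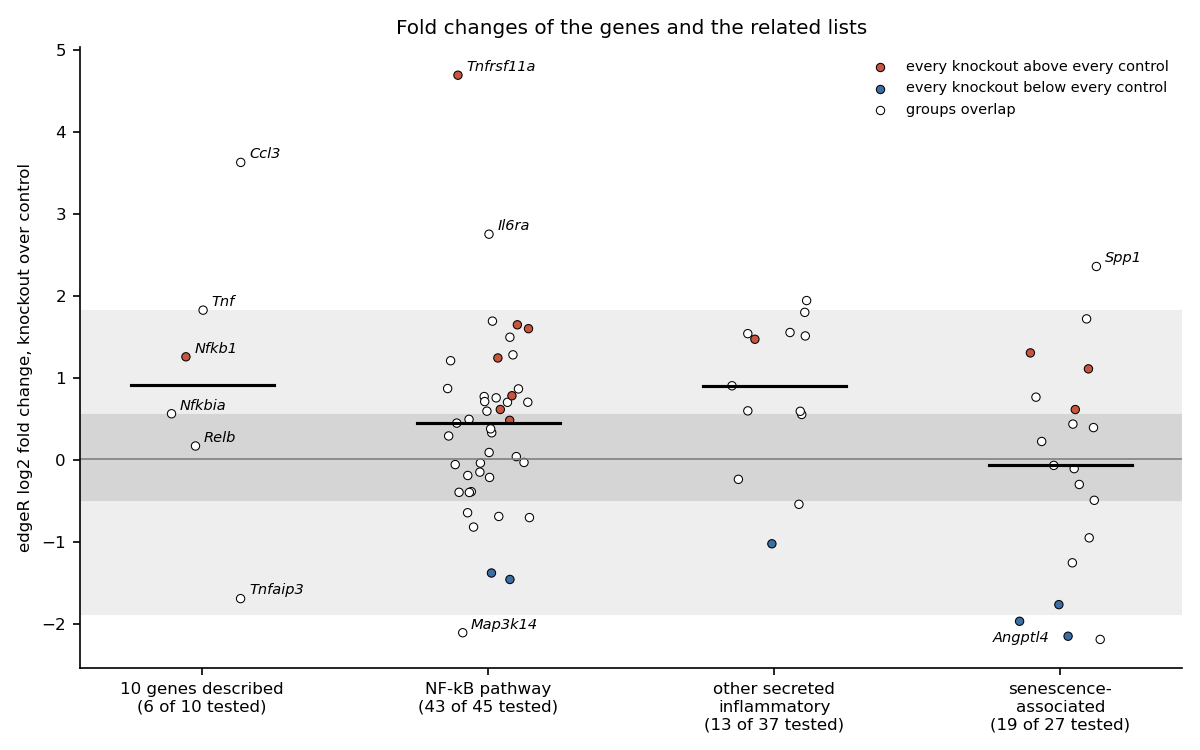
edgeR log2 fold change (y axis, knockout over control) of the tested genes among the 10 described and in 3 related lists, with each list's median as a black line. Grey bands hold the central 50% and 90% of all 13646 genes and the grey line their median of 0.01; colours mark genes whose groups do not overlap, such as Nfkb1 at 1.26 and Tnfrsf11a at 4.69.

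Other secreted inflammatory factors resembled the secreted factors of the gene set in that most did not pass the filter on low counts. Of 37 such genes 13 passed the filter, and 11 had no read in any library, Cxcl3 among them. edgeR called 0 of the 13 (2 at an unadjusted p under 0.05, against 6.51% of all genes), as did DESeq2 with and without the block. The median log2 fold change of the 13 was 0.90, and that of all genes tested was 0.01. Positive fold changes were found for 10 of the 13 (76.9%), against 50.8% of all genes. In 1 (7.69%) every knockout exceeded every control, against 6.39% of all genes, and in 1 (7.69%) every knockout lay below, against 7.74%. Ccl2, a monocyte-attracting chemokine gene, had 0 counts in all controls and in knockout 2, 110 in knockout 1 and 3140 in knockout 3. It was left out by the filter. Knockout 3 had the highest macrophage marker sum, and the part of other cells in Ccl2 was not tested. Cxcl1, a relative of Cxcl2, had 63 counts in knockout 1 and 0 elsewhere. Knockout 1 was therefore the single library with reads of both Il1b and Cxcl1. Il1a, a relative of Il1b that is active without cleavage, was better covered, at 5.32, 11.9 and 7.37 CPM in controls 1 to 3 and 12.4, 2.23 and 21.5 CPM in knockouts 1 to 3 (0.55 on the log2 scale by edgeR, SE 0.82, adjusted p = 0.943). Il1rn, the gene of the receptor antagonist of both, had 1.04 ± 1.57 and 3.07 ± 4.38 CPM (control and knockout; mean ± SD; edgeR adjusted p = 0.933).

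The 2 list genes below an unadjusted p of 0.05 were platelet chemokines, both also on the megakaryocyte marker list, and they went in opposite directions. Ppbp had 56.0, 32.7 and 43.6 CPM in controls 1 to 3 and 23.7, 27.1 and 14.3 CPM in knockouts 1 to 3, with every knockout lower (-1.02 on the log2 scale by edgeR, SE 0.38, adjusted p = 0.729). Pf4 had 6.22, 4.09 and 7.19 CPM in controls and 10.5, 16.1 and 22.0 CPM in knockouts, with every knockout higher (1.47 on the log2 scale by edgeR, SE 0.56, adjusted p = 0.733).

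Factors secreted by senescent cells, listed without the cytokines above and without metalloproteinases, showed no common direction. Of 27 genes 19 passed the filter, with 9 positive and 10 negative fold changes and a median of -0.07. edgeR called 0 of them (3 at an unadjusted p under 0.05, against 6.51% of all genes), and DESeq2 called 0 with and without the block. In 3 of the 19 (15.8%) every knockout was higher, against 6.39% of all genes, and in another 3 every knockout was lower, against 7.74%. Tgfb1, the gene of a growth-restraining cytokine that many blood cells make, had 68.2, 74.5 and 64.6 CPM in controls 1 to 3 and 95.3, 110.04 and 112 CPM in knockouts 1 to 3 (0.61 on the log2 scale by edgeR, SE 0.21, adjusted p = 0.721). Timp2, a protease inhibitor gene, had 5.78 ± 2.06 and 14.3 ± 2.34 CPM, and Angptl4, a lipase inhibitor gene, had 10.8 ± 6.12 and 2.43 ± 1.78 CPM (control and knockout; mean ± SD; edgeR adjusted p = 0.762 and 0.766).

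Genes with the most similar profile over the 6 libraries were sought for the most abundant gene of each role, by the root mean square difference of centred log2 CPM among 8512 genes with a mean of at least 5 CPM. This is a description over 6 libraries that share their depth and cell make-up. For Nfkb1, whose own profile had an SD of 0.76, the nearest were Fbxo28 (0.10), Wdr60 (0.11) and Bpgm (0.17). Fbxo28 had 12.2, 16.7 and 25.7 CPM in controls 1 to 3 and 28.3, 33.5 and 54.5 CPM in knockouts 1 to 3, so it shared with Nfkb1 both the gap between genotypes and the high litter 3. For Tnf, with an SD of 1.23, the nearest were Wdfy1 (0.21), Itgav (0.29) and P2ry13 (0.29). For Ccl3 and Nfkbia the nearest profiles were far looser, with Rhof at 1.23 against an SD of 2.66 and Cdkn2c at 0.51 against an SD of 1.95.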

How the data were processed

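Each library came as raw counts by gene symbol, as the authors deposited them, with replicates kept apart. The submitters' processing notes name CASAVA 1.8.4, TopHat2, Picard 1.126, HTSeq 0.6.0, DESeq 3.0 and bedtools 2.17.0 and the build mm10, without roles. Strand setting, annotation and read length are not given in the sources used here. Per the labels' protocols, poly(A) RNA was selected in a pair of rounds from total RNA of sorted cells. No molecular tags are described, so floors cover counting error only. The rows of reads assigned to no gene (41.01% to 51.0% of reads) were left out.

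Genes passed edgeR's filterByExpr, were scaled by TMM and tested with edgeR's quasi-likelihood test (edgeR 4.0.16, R 4.3.3), knockout against control, with Benjamini-Hochberg adjustment over 13646 genes and a threshold of 0.05. The SE of an edgeR fold change was taken from its F statistic, as the absolute value divided by the root of F. CPM uses TMM-scaled library sizes, and log2 CPM a prior count of 2. DESeq2 1.42.0 and limma-voom (limma 3.58.1) were alternatives. Exon lengths and positions are from GENCODE vM21 (GRCm38), and Otulin and Adgre1 were found under the older symbols Fam105b and Emr1. Litter numbers pair the samples per the labels, although deviations of same-litter samples correlated at -0.0224, -0.0752 and 0.00336.

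The 10 genes and the lists were chosen with earlier results of these data known. Beside the 10 genes and Dpy30, the text names list genes called by edgeR or DESeq2, up to 5 per list by unadjusted edgeR p with a mean of at least 1 CPM, and 11 subunit, kinase or related cytokine genes by name. Markers of 10 cell types were summed. Some sums of mast cells and basophils, T and NK cells and endothelial cells are printed above and again below. The lists described first are the HSC, macrophage and granulocyte lists. Summed CPM in the other lists, as ranges in controls and knockouts, was 1.69 to 8.75 and 1.69 to 4.71 for B cells, 0.776 to 5.35 and 3.50 to 15.9 for T and NK cells, 1163 to 1815 and 183 to 1668 for endothelial cells, 1254 to 1984 and 674 to 1772 for erythroid cells, 5.56 to 21.9 and 3.39 to 7.88 for hepatocytes, 0.0691 to 5.48 and 6.42 to 17.9 for mast cells and basophils, and 156 to 268 and 101 to 309 for megakaryocytes.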

Additional observations from a re-analysis of the deposited data

How the results depend on the processing

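edgeR's count of genes past the threshold, 0, became 139 with DESeq2, 270 with DESeq2 and the replicate block (litter), 1 without a filter on low counts and 1 with at least 10 counts in every sample. Blocked DESeq2 without litter 1, 2 or 3, added after the data were seen, called 193, 268 and 124. Of the 10 genes, 1 was called by blocked DESeq2 (Nfkb1) and 1 by it without litter 3 (Ccl3). Of the pathway list, 1 was called by DESeq2, 2 with the block, and 1, 3 and 1 without litters 1, 2 and 3 (Tnfrsf11a each time, Il6ra with the block and without litter 2, and Traf1 without litter 2). Of the other secreted factors 1, Ccl9, was called without litter 3, and of the senescence list 1, Angptl4, without litter 2. In edgeR no call in these lists appeared on leaving out any 1 library. With the replicate block in edgeR the median log2 fold change of the 6 tested genes was 0.96 against 0.91, and it ranged from 0.20 without knockout 3 to 1.58 without control 3. The median of all genes shifted by -0.12 with upper-quartile scaling, by 0.21 with library-size scaling, by -0.16 with limma-voom and by -0.14 with the edgeR block; Nfkb1 stayed between 1.11 and 1.39 in these 4 fits.

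Of 26 gene-level fold changes, signs turned as follows, and the cause was not tested. Nfkbia was -1.53 with the edgeR block, -1.62 with the DESeq2 block, -1.73 with limma-voom, -2.34 and -4.54 in blocked DESeq2 without litters 1 and 3, and -1.96 to 1.15 leaving out 1 library. Tnfaip3 was 0.11 in blocked DESeq2 without litter 3. Relb was -0.0022 with upper-quartile scaling and -0.57 to 1.82 leaving out 1 library. Rela was -0.066 with upper-quartile scaling, -0.10 and -0.15 in blocked DESeq2 without litters 1 and 2, and -0.13 to 0.25 leaving out 1 library. Rel was 0.11 with library-size scaling, 0.55 and 0.21 without litters 1 and 2, and -1.44 to 0.41 leaving out 1 library. Chuk was 0.071 without litter 3. Il1a was -0.40 and -0.58 without litters 1 and 3, and -0.15 to 1.05 leaving out 1 library. Il1rn was -1.17 without litter 1, and -0.85 to 4.50 leaving out 1 library. Without knockout 3 Ikbkb was 0.45, Ikbkg 0.09 and Chuk -0.14, and without knockout 2 Rbck1 was 0.78. Nfkb1, Tnf and Ccl3 kept their sign in every setting that tested them. Cxcl2, Il1b, Il6 and Ccl4 were too thinly covered at this depth for a comparison.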
